A study of Mus musculus with 8 samples.

Results

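The second Drd1+ cluster is a small group of nuclei from mouse striatum that the authors' annotation sets apart from the main group of Drd1+ neurons. It was taken as deposited, as every nucleus whose annotation names the second of the 2 Drd1+ clusters, and it held 1506 of 55672 annotated nuclei (2.71%). The main cluster, called Drd1+ neurons here, held 15395 nuclei (27.7%) and is the group it was compared with inside each mouse. The markers given for the second cluster were Otof, Casz1, Tshz1, Cacng5 and Pcdh8, a set used for eccentric projection neurons, and each of the 5 had its highest level in this cluster among the 18 clusters of the annotation.

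The striatum of 12-week-old mice was profiled by single-nucleus multiome sequencing, in which RNA and open chromatin are read from the same nucleus. The mice were of 8 inbred strains, with 4 mice per strain and no treatment or transgene named in the labels. WSB/EiJ, PWK/PhJ and CAST/EiJ are wild-derived strains, and NZO/HlLtJ, NOD/ShiLtJ, C57BL/6, A/J and 129S1/SvImJ are classical laboratory strains. C57BL/6 is written without a substrain because the labels give C57BL/6J and the authors' table gives C57BL_6NJ. Nuclei of 8 mice, 1 of each strain, were pooled in each of 4 batches, so a mouse is a strain within a batch and 32 mice were compared. The series set strain backgrounds side by side, and both sexes were used. The sex of each mouse is not given in the sources used here, so it did not enter any comparison.

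Striatal projection neurons are GABAergic cells that mostly fall into a direct pathway type, which expresses the D1 dopamine receptor, substance P (Tac1) and dynorphin (Pdyn), and an indirect pathway type, which expresses the D2 receptor, an adenosine receptor and enkephalin (Penk). Both types lie either in striosomes, patches rich in the mu opioid receptor, or in the surrounding matrix, which is rich in calbindin. Eccentric projection neurons are a further, less common type that was described from single-cell RNA profiles and that shares some genes with each of the classical types.

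The 32 mice gave 28 to 77 nuclei of the cluster each, with a mean of 47.1 ± 13.0 (SD), and 115071 to 401617 RNA counts each. Counts are unique molecular identifiers (UMIs), so that copies of a molecule made by PCR are counted once. The median nucleus had 4539 UMIs, against 6505 in Drd1+ neurons, and the cluster's median was the lower in 32 of 32 mice (ratio 0.719 ± 0.0724, SD). The open chromatin index listed 86.3% of the cluster's nuclei and 95.4% of the Drd1+ neurons, with the lower share in the second cluster in 31 of 32 mice. The third batch was the shallowest, at a median of 3591 UMIs in the cluster against 4628 to 4940 in the others. No barcode of the cluster occurred in the cluster in more than 1 batch, and 92 of its barcodes also carried an annotated nucleus in another batch.

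All 5 markers were higher in the second cluster than in Drd1+ neurons in all 32 mice, and no mouse overlapped. Levels are scaled counts (CPM) after TMM scaling of the summed nuclei of each mouse and cluster, and ratios are log2 of (CPM + 5) over (CPM + 5) within a mouse. These differences describe the cluster and were not tested, because the authors formed the clusters from the RNA of these same nuclei. How many of all genes had no overlap between both clusters is not given here. Otof encodes otoferlin, a calcium sensor of vesicle fusion known from inner hair cells. It had a lowest, median and highest mouse of 84.95, 210.9 and 323.4 CPM in the second cluster, and of 1.82, 9.84 and 40.4 CPM in Drd1+ neurons, for a median log2 ratio of 3.61 ± 0.57 (SD, n = 32). Casz1 and Tshz1 encode zinc finger transcription factors. Casz1 ran from 66.48 over 127.2 to 187.1 CPM in the second cluster and did not exceed 2.99 CPM in any mouse's Drd1+ neurons (median log2 ratio 4.37 ± 0.44). Tshz1 ran from 252.3 over 420.0 to 574.5 CPM against 26.9 over 37.9 to 53.5 CPM (3.23 ± 0.33). Cacng5 encodes an auxiliary subunit of AMPA receptors, and Pcdh8 an adhesion protein of the protocadherin family. Cacng5 ran from 25.68 over 59.65 to 108.2 CPM against 0.688 over 6.90 to 25.2 CPM (2.35 ± 0.74). Pcdh8 ran from 9.496 over 30.4 to 78.4 CPM against 0 over 0.437 to 1.86 CPM (2.62 ± 0.59). Cacng5 came closest to an overlap, since its lowest mouse of the second cluster lay just above the highest of Drd1+ neurons.

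**Figure D1:**
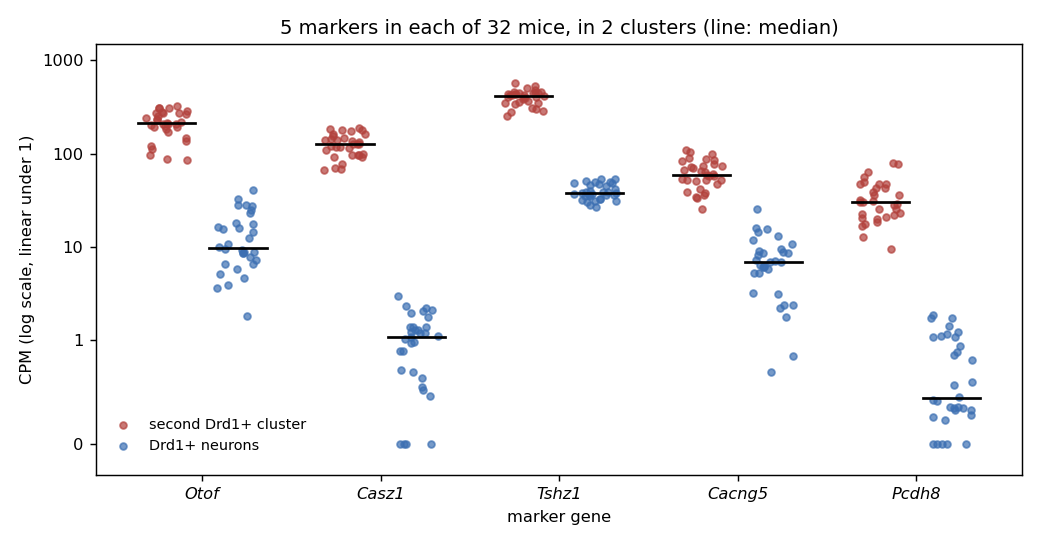
CPM of Otof, Casz1, Tshz1, Cacng5 and Pcdh8 (y axis, log scale that is linear under 1) in the second Drd1+ cluster and in Drd1+ neurons, 1 point per mouse (n = 32) and a line at the median. The points of the second cluster lie above those of Drd1+ neurons for each of the 5 genes, with Cacng5 the closest.

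The cluster was Drd1-positive and Tac1-positive, with Pdyn, Isl1 and Ebf1 lower than in Drd1+ neurons. Of 12440 genes compared within mice, 302 (2.43%) were at least 1 log2 unit higher in the second cluster with that sign in at least 90% of mice, and 418 (3.36%) were as much lower, so 5.79% were past that size in either direction. Among the 7146 genes with a mean of at least 20 CPM in either cluster, 274 were higher and 333 lower by that size, larger shares than over all genes. Of the direct pathway genes, 0 of 6 were past that size in the higher direction, and Pdyn, Isl1 and Eya1 were past it in the lower. Drd1, the D1 receptor gene, had 95.09, 179.7 and 355.0 CPM in the lowest, median and highest mouse of the second cluster, against 173.8, 226.6 and 353.4 CPM in Drd1+ neurons. That was lower in 29 of 32 mice by a median log2 ratio of -0.37 ± 0.36, with ranges that overlapped. Tac1 was the higher in 29 of 32 mice, at 263.2, 557.6 and 1311 CPM against 219.8, 336.3 and 714.6 CPM (0.74 ± 0.50). Pdyn was lower in 32 of 32 mice, at 0, 11.8 and 47.5 CPM against 31.6, 56.7 and 118.7 CPM (-1.89 ± 0.94), with ranges that overlapped. Isl1 and Ebf1, the second of them from the transcription factor list, are transcription factor genes of direct pathway neurons. Isl1 had a median of 0 and a highest mouse of 7.84 CPM, against a lowest mouse of 13.0 CPM in Drd1+ neurons (-2.49 ± 0.56). Ebf1 had a highest mouse of 59.1 CPM against a lowest of 255.5 CPM (-4.64 ± 1.14), so neither overlapped.

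Of the indirect pathway genes, 3 of 7 were higher (Penk, Ptprm and Sp9) and 0 of 7 lower, beside 2.43% and 3.36% of all genes. The D2 receptor gene itself was not past the size. Sp9, a transcription factor gene, was not past it with an offset of 20 CPM either (0.62, against 1.39 with 5 CPM). Penk was higher in 32 of 32 mice, at 147.8, 288.1 and 578.0 CPM against 60.6, 87.5 and 239.0 CPM (1.49 ± 0.57), and the ranges overlapped. In the Drd2+ neurons of the same mice, Penk averaged 1215 ± 392 CPM over total counts, above the second cluster. Drd2 had a median of 15.9 CPM in the second cluster and 11.02 CPM in Drd1+ neurons (0.41 ± 1.10), higher in 19 mice and lower in 13, against 426.9 ± 60.4 CPM in Drd2+ neurons. Drd2 was thus near the level of Drd1+ neurons, while Penk lay between both types. Penk was also detected in nuclei of oligodendrocytes (below), and the part of RNA from other cells in its level was not tested. Ptprm, a receptor-type tyrosine phosphatase gene that was in the indirect pathway list, ran from 624.4 over 873.5 to 1103 CPM against 4.73 over 14.1 to 40.3 CPM (5.51 ± 0.52). Of the general genes of projection neurons, 0 of 16 were higher and 4 of 16 lower by the size used. Genes for DARPP-32 (Ppp1r1b, -0.54 ± 0.22), the phosphodiesterase PDE10A (Pde10a, -0.45 ± 0.20) and RGS9 (Rgs9, -0.54 ± 0.24) were lower in 32 of 32 mice but short of 1 log2 unit. Of 4 genes for GABA synthesis and transport, none was past the size in either direction, and Gad1 was higher in 32 of 32 mice (0.68 ± 0.27).

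Striosome genes were mostly higher and matrix genes mostly lower, with 5 of 8 and 0 of 5 past the size upward and 2 of 8 and 3 of 5 downward. The median log2 ratio was 1.52 over the striosome list and -1.61 over the matrix list, beside -0.07 over all 12440 genes. Among all genes, 2.43% were past the size upward and 3.36% downward. Sema5b, a semaphorin gene, ran from 183.9 over 308.0 to 452.9 CPM against 14.9 over 24.0 to 42.9 CPM (3.38 ± 0.44), with no overlap. Khdrbs3, an RNA-binding splicing regulator gene, ran from 174.6 over 266.9 to 381.3 CPM against 29.3 over 56.8 to 83.7 CPM (2.23 ± 0.30), also without overlap. Oprm1, the mu opioid receptor gene, was higher in 31 of 32 mice, at 29.8, 110.5 and 224.0 CPM against 19.7, 45.8 and 68.9 CPM (1.32 ± 0.71). The other genes of the list that were higher were Lypd1 (1.72 ± 0.55) and the marker Tshz1. The list was not of a single direction, since Pdyn and Kremen1 (-1.02 ± 0.77) were lower, although Kremen1 lay at the edge of the size used and was short of it with an offset of 20 CPM (-0.57). Of the matrix genes, Calb1, the calbindin gene, was lower without overlap, at 0, 7.88 and 27.9 CPM against 39.0, 84.6 and 116.3 CPM (-2.68 ± 0.96). Sv2b, a synaptic vesicle protein gene (-3.57 ± 0.83), and Rasgrp2, an exchange factor gene for Rap (-1.61 ± 0.55), did not overlap either.

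Of 18 genes for opioid, tachykinin, serotonin, cannabinoid and muscarinic receptors, 4 were higher and 3 lower, beside 2.43% and 3.36% of all genes. Besides Oprm1 the higher genes were Tacr1, the substance P receptor gene (5.14, 81.1 and 141.1 CPM against 0, 1.77 and 7.08 CPM; 3.33 ± 0.67), Chrm3 (3.10 ± 1.14) and Htr4 (1.85 ± 0.94). Chrm3 and Htr4, the genes of a muscarinic and a serotonin receptor, were both lower than in Drd2+ neurons, where they averaged 288.5 ± 65.8 and 172.4 ± 81.0 CPM over total counts. The lower genes were Htr2c (7.84, 21.7 and 128.2 CPM against 205.3, 342.3 and 457.6 CPM; -3.64 ± 1.00), Htr1b (-1.43 ± 0.69) and the cannabinoid receptor gene Cnr1 (-1.02 ± 0.79). Htr1b and Cnr1 (-0.94) both fell short of the size with an offset of 20 CPM. Of 64 listed genes past the size, 52 stayed past it in every alternative run with Drd1+ neurons. None of the 3 dopamine receptor genes measured was past the size. Drd3 had a median of 25.6 CPM against 16.1 CPM (0.52 ± 1.08), higher in 21 mice and lower in 11.

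Transcription factor genes were split, with 9 of 35 higher and 8 of 35 lower, beside 2.43% and 3.36% of all genes. The list holds the markers Casz1 and Tshz1. Nfib, a nuclear factor I gene, ran from 43.3 over 228.4 to 696.2 CPM against 5.82 over 10.0 to 19.0 CPM (4.07 ± 0.82), and its relative Nfix was also higher (1.97 ± 0.55). The forkhead genes Foxp2 and Foxp1 differed in opposite directions. Foxp2 ran from 2140 over 3351 to 4193 CPM against 853.6 over 1052 to 1237 CPM (1.63 ± 0.20). Foxp1 ran from 405.6 over 624.3 to 953.7 CPM against 2171 over 2517 to 2948 CPM (-1.99 ± 0.28). Neither overlapped, and Foxp2 was also above the Drd2+ neurons (413.2 ± 79.9 CPM over total counts). The homeobox gene Pbx3 (1.11 ± 0.21) and the retinoid X receptor gene Rxrg (1.21 ± 0.44) were higher in all 32 mice. The retinoic acid receptor gene Rarb (-1.17 ± 0.20), Zfhx3 (-2.46 ± 0.80) and Foxo1 (-3.04 ± 0.81) were lower in all 32 mice, without overlap.

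Within families of signalling genes, some members were higher and others lower. Of all genes, 2.43% were past the size upward and 3.36% downward. Of 22 glutamate receptor genes, 3 were higher and 4 lower, with a median log2 ratio of -0.13. Grm5, a group I metabotropic receptor gene, ran from 1704 over 2052 to 3044 CPM against 3976 over 4679 to 5425 CPM (-1.17 ± 0.17). Also lower were Grm3 (-1.50 ± 0.50) and the kainate receptor gene Grik2 (-1.31 ± 0.23), whereas the kainate receptor genes Grik3 (2.39 ± 0.69) and Grik4 (1.68 ± 0.41) and the NMDA receptor gene Grin3a (2.53 ± 0.80) were higher. Of 12 GABA-A receptor subunit genes, Gabra3 alone was higher, at 47.5, 110.1 and 153.1 CPM against 0.82, 2.62 and 6.56 CPM (3.78 ± 0.43). Gabrd (-1.38 ± 0.51) and Gabrb1 (-1.03 ± 0.27) were lower, Gabrb1 just short of the size with an offset of 20 CPM or with total counts (-0.91). Of 15 phosphodiesterase genes, 5 were higher and 2 lower. Pde4b, a cAMP-specific phosphodiesterase gene, ran from 1846 over 2866 to 3833 CPM against 383.7 over 614.7 to 1203 CPM (2.03 ± 0.38), and Pde4d was higher too (2.35 ± 0.56). Pde1c (-3.65 ± 0.93) and Pde7b (-1.15 ± 0.30) were lower. Cacng5 was the only 1 of 6 measured genes of its family past the size, and 4 of 9 non-clustered protocadherin genes were higher, among them Pcdh15, Pcdh8 and Pcdh7 (1.40 ± 0.38), and 1 of 9, Pcdh11x, was lower (-1.32 ± 0.72).

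The 12 genes with the highest and the 12 with the lowest ratio were picked among genes past the size with at least 20 CPM in the higher cluster. Each differed in the same direction in 32 of 32 mice and did not overlap, which the choice of extreme ratios largely fixed in advance. The highest was Pcdh15, a protocadherin known from the tip links of hair cells, at 1073, 2228 and 3269 CPM against 9.28, 26.1 and 62.8 CPM (6.18 ± 0.59). It was followed by Vwc2l, which encodes a secreted von Willebrand factor C domain protein. Vwc2l had 160.3, 365.4 and 624.6 CPM and at most 1.77 CPM in Drd1+ neurons (6.05 ± 0.49). Alk, a receptor tyrosine kinase gene, had 303.1, 591.1 and 802.4 CPM and at most 8.17 CPM (5.94 ± 0.47). Ankfn1 (5.66), Ptprm (5.51), the phosphatase gene Ppm1e (4.80), Thsd7b (4.77), the collagen gene Col11a1 (4.67), the sulfotransferase gene Chst9 (4.65), the netrin receptor family gene Unc5d (4.60), Gm15398 (4.48) and Casz1 completed the higher group. Alk, Ptprm and Unc5d were not equally low in Drd2+ neurons, where they averaged 62.2 ± 25.8, 395.2 ± 58.1 and 197.9 ± 73.9 CPM over total counts. The lowest was Kctd8, an auxiliary subunit gene of GABA-B receptors, at 0, 9.62 and 107.6 CPM against 385.6, 612.1 and 802.4 CPM (-5.32 ± 1.50). Il1rapl2, a synaptic adhesion gene, followed at 0, 4.91 and 91.4 CPM against 129.3, 334.2 and 766.2 CPM (-4.99 ± 1.34). The rest of the lower group was Ebf1, Onecut2 (-4.56), Reln (-3.97), Stk32a (-3.97), the protein kinase C gene Prkch (-3.93), Pde1c, Htr2c, Thsd7a (-3.62), Sv2b and Tbc1d4 (-3.50). In Drd2+ neurons, Ebf1 and Il1rapl2 averaged 7.28 ± 3.98 and 20.4 ± 15.1 CPM over total counts, and the other 10 genes of the lower group averaged from 47.5 ± 18.6 CPM for Onecut2 to 792.8 ± 159.3 CPM for Thsd7a. Both counts of genes fell with a larger offset, to 193 higher and 210 lower with 20 CPM added in place of 5, and all 24 genes kept their direction and stayed past 1 log2 unit with offsets of 1 and 20 CPM.

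**Figure D2:**
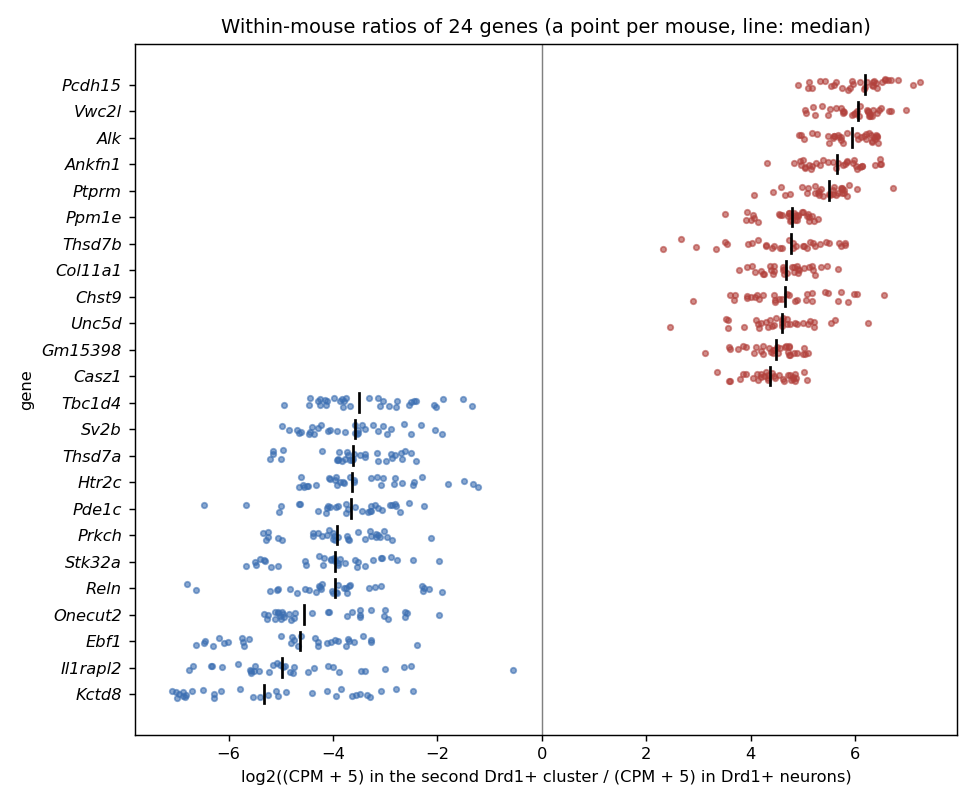
Log2 ratio of (CPM + 5) in the second Drd1+ cluster over Drd1+ neurons (x axis) for the 12 genes with the highest and the 12 with the lowest median (y axis), 1 point per mouse (n = 32) and a line at the median. The medians run from 6.18 for Pcdh15 to -5.32 for Kctd8, and every point of a gene lies on the side of its median.

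Promoter sequences are shown for Cacng5, Vwc2l and Pcdh15, as a marker and the 2 genes with the highest ratios whose 250 bases before the start site overlapped a deposited accessible region. The accessible regions were called over all batches and clusters together, so an overlap says nothing of this cluster alone. The sequences are from RefSeq (GRCm38.p6), 5′ to 3′ on the gene's strand, and capitals mark a match to TGANTCA, the motif of the transcription factor AP-1.
Cacng5, chr11:107915056-107915305, minus strand: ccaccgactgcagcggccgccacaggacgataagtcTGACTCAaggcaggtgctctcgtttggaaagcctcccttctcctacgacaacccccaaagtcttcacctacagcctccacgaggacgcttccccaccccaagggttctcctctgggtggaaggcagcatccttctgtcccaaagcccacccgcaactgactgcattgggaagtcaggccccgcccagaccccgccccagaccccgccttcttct
Vwc2l, chr1:70725465-70725714, plus strand: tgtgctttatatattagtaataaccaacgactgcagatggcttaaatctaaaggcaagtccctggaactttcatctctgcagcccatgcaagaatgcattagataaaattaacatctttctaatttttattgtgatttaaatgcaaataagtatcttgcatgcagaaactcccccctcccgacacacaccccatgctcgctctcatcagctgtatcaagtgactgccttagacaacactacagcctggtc
Pcdh15, chr10:73821617-73821866, plus strand: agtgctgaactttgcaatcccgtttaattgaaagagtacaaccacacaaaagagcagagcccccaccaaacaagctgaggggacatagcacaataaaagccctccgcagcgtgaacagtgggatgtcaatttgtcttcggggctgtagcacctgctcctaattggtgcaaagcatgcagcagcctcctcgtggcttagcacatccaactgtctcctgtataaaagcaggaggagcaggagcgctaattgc
Both strands were searched for 3 motifs, none of which contains another. They were AP-1 as above, TGTTTAC for forkhead factors and TGACAG for MEIS factors. The Cacng5 sequence, from 1 of its 2 RefSeq starts, held 1 AP-1 match, and the other sequences held none of the 3 motifs. The 250 bases before the other Cacng5 start, not shown, also overlapped an accessible region and held none of the 3. Among 32851 windows of the same length before RefSeq start sites, 6.75% held an AP-1 match, 15.9% a MEIS match and 3.17% a forkhead match. With the 50 bases after each start site added, an accessible region overlapped 53.1% of the windows, and at least 1 such window of 55.2% of 27025 genes. Counted per gene in the same way, it overlapped 5 of 8 named genes of the higher group with a RefSeq window and 6 of 9 of the lower group. The windows of Casz1 and Pcdh8 overlapped none.

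In single nuclei of the cluster, no marker was detected in all of them, and at this depth a nucleus without a UMI of a gene cannot be told apart from one that lacks its RNA. A UMI of Tshz1 was detected in 78.8% of 1506 nuclei (95% Clopper-Pearson interval 76.7 to 80.9), of Otof in 48.7% (46.1 to 51.2), of Casz1 in 36.2% (33.8 to 38.7), of Cacng5 in 23.7% (21.6 to 25.9) and of Pcdh8 in 14.3% (12.6 to 16.2). None of the 5 was detected in 112 nuclei and all 5 in 9, with 405, 483, 366 and 131 nuclei holding 1, 2, 3 and 4 of them. To compare clusters of unequal depth, each nucleus was thinned to 2000 UMIs, which left out 101 shallower nuclei of the cluster, 135 of the Drd1+ neurons and 8755 of 12066 oligodendrocytes. At that depth Otof was detected in 29.0% of the cluster, 2.23% of Drd1+ neurons and 0.0604% of oligodendrocytes, which should lack it. Tshz1 was detected in 54.8%, 6.89% and 9.36%, so its share in Drd1+ neurons was below that in oligodendrocytes. Penk was detected in 36.9% of the cluster, 15.6% of Drd1+ neurons and 28.9% of oligodendrocytes, so its share in Drd1+ neurons was also below that in oligodendrocytes. The part of free RNA in these shares was not tested. Foxp2 was detected in 99.1% of the cluster's nuclei, against 80.8% of Drd1+ neurons, 41.5% of Drd2+ neurons and 2.05% of oligodendrocytes. Unthinned median depths were 4539 UMIs in the cluster, 6505 in Drd1+ neurons and 1640 in oligodendrocytes. Intervals cover counting error only, not the spread between mice.

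**Figure D3:**
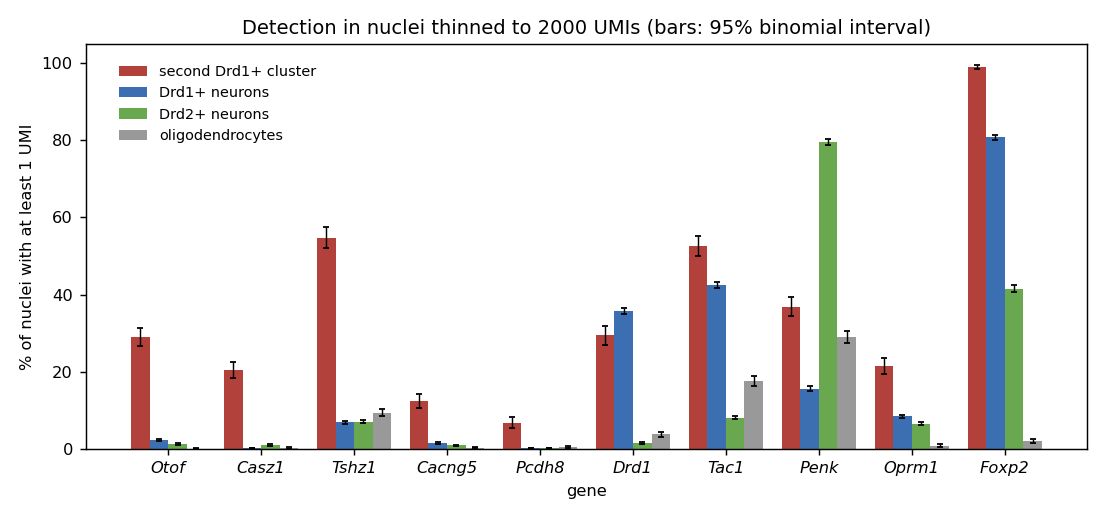
Share of nuclei with at least 1 UMI (y axis, %) of the 5 markers and of Drd1, Tac1, Penk, Oprm1 and Foxp2 (x axis) after thinning to 2000 UMIs, in 4 clusters, with bars for the 95% Clopper-Pearson interval. In the second Drd1+ cluster the shares run from 6.76% for Pcdh8 to 99.1% for Foxp2, and each of the 5 markers is detected more often there than in the other clusters shown.

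Nuclei with and without an Otof UMI differed in other genes of the list after thinning to 2000 UMIs. Drd1 was detected in 37.1% of the 407 nuclei with Otof and in 26.3% of the 998 without, Tac1 in 65.8% and 47.3%, and Casz1 in 31.9% and 15.7%. Penk went the other way, at 30.5% with Otof and 39.5% without, as did Oprm1 at 14.3% and 24.3% and Pdyn at 1.23% and 4.61%. Tshz1 was near equal, at 55.5% and 54.5%. These are descriptions of nuclei pooled over mice and strains, with no test. In Otof and Oprm1, 2 of the strains differed in opposite ways, with means of 270.9 and 56.5 CPM in C57BL/6 and 126.5 and 198.9 CPM in WSB/EiJ. 129S1/SvImJ was also low in Otof (123.6 CPM) but had no call of Oprm1 against the other strains. In the same split of Drd2+ neurons, the 153 nuclei with Otof and the 12885 without held Casz1 in 17.0% and 0.799%, Tac1 in 24.2% and 7.88% and Penk in 43.8% and 80.0%, while Drd1 was near equal at 1.31% and 1.55%. In Drd1+ neurons, the 340 nuclei with Otof and the 14920 without were near equal in Tac1 (43.8% and 42.4%) and Penk (14.7% and 15.7%). Before thinning, the nuclei with Otof were the deeper, at a median of 5405 UMIs against 3701, and after leaving out the shallow nuclei the original depths were 5221 and 4479. The oligodendrocyte gene Mbp was detected in 71.5% of the nuclei with Otof and 80.0% of those without, and Pde10a in 95.8% and 78.1%. The part of strain, of free RNA and of other cells in this split was not tested.

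For most other cell types, the range over mice of the summed markers overlapped between the second cluster and Drd1+ neurons, although the pooled sums of several lists were higher in the second cluster. The summed level of 6 oligodendrocyte markers was 805, 1526 and 1942 CPM in the lowest, median and highest mouse of the second cluster, against 986, 1228 and 1417 CPM in Drd1+ neurons, and all 6 had a higher pooled level in the second cluster. For 6 astrocyte markers the sums were 87.0, 231 and 466 CPM against 113, 188 and 251 CPM, and for 10 interneuron markers 18.6, 80.0 and 179 CPM against 39.0, 58.1 and 79.2 CPM. Over the pooled nuclei, 5 of 6 astrocyte markers (254 against 184 CPM in sum) and 8 of 10 interneuron markers (91.5 against 57.3 CPM) were at a higher level in the second cluster, as were 5 of 6 microglial and 5 of 5 endothelial markers (17.9 against 11.3 CPM), and 1 of 4 markers of oligodendrocyte precursors. Microglial markers summed to 21.8, 76.0 and 215 CPM against 61.3, 80.7 and 104 CPM, endothelial markers to 0, 12.2 and 80.5 CPM against 4.68, 11.1 and 17.5 CPM, and markers of oligodendrocyte precursors to 0, 16.6 and 34.8 CPM against 14.7, 30.4 and 59.5 CPM. In the cluster richest in each list the sums were 22034 CPM for oligodendrocytes, 10254 CPM for astrocytes and 9789 CPM for interneurons. The sum of 7 markers of excitatory neurons was lower, at 0, 19.3 and 59.2 CPM against 95.9, 138 and 211 CPM, although 5 of the 7 had a higher pooled level in the second cluster. Sv2b, which is also in the matrix list, made up most of that sum in Drd1+ neurons (137 CPM pooled, against 9.52 CPM in the second cluster). The sum of 5 neuroblast markers was higher, with 4 of the 5 at a higher pooled level, at 92.2, 151 and 259 CPM against 41.8, 58.6 and 84.4 CPM, with Dcx the only 1 of 4 measured genes past the size (1.38 ± 0.29). These sums are over total counts, and no gene of these lists was at 0 over the pooled cluster. Their part in the differences above was not tested.

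The share of a mouse's nuclei that fell in the cluster was 2.84 ± 0.984% (SD, n = 32) and ranged from 1.49 to 5.93%. It was highest in the third batch, at 3.58% of pooled nuclei against 2.32 to 2.61% in the others. By strain it was lowest in A/J (2.03 ± 0.786%, SD, n = 4) and NOD/ShiLtJ (2.12 ± 0.16%) and highest in PWK/PhJ (3.50 ± 1.29%) and CAST/EiJ (3.62 ± 1.63%). No test is given, because levels of Otof and Casz1 differed between strains and marker levels can move nuclei between clusters. In pooled nuclei of this kind, fewer nuclei of a type and less capture of that type cannot be told apart. The depth of the cluster's nuclei differed between strains, from a median of 4001 ± 731 UMIs in WSB/EiJ to 5150 ± 777 UMIs in NOD/ShiLtJ (permutation test of strain labels within batches, 100000 resamples, two-sided by F, p = 0.00838). That p was 0.142 without batch 1 and 0.0647 without batch 2, and 0.414 when labels were permuted across batches.

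In the cluster, 958 of 5544 genes tested differed between strains (17.3%; edgeR quasi-likelihood test with Benjamini-Hochberg adjustment, adjusted p under 0.05), and 2 of the 5 markers were among them. Most of these genes were not particular to the cluster. Of the 958, 944 were also tested in Drd1+ neurons of the same mice, and 868 of these differed between strains there too. In Drd1+ neurons, 8283 of 13431 genes tested were called for strain. The highest and lowest fitted strain levels were at least 1 log2 unit apart in 610 of the 958 genes called in the second cluster. How many of all 5544 genes had such a span is not given here. Counts of every strain come from the mm10 build, a C57BL/6 genome, and the part of sequence differences between strains in these values, zeros included, was not tested. Some markers of other cell types also moved with strain, while 0 of 3 oligodendrocyte, 0 of 2 astrocyte and 0 of 1 microglial markers tested passed. The summed level of 5 neuroblast markers was 218 ± 38 CPM in NOD/ShiLtJ (169 to 259 CPM) and 118 ± 21 CPM in C57BL/6 (92.2 to 139 CPM), with no overlap. The 2 neuroblast markers tested, Dcx and Sox11 (edgeR adjusted p = 0.00711 and 0.0164), and the 1 interneuron marker tested, Nxph1 (0.00951), passed for strain, though none of these 3 calls remained in every alternative run. Oligodendrocyte sums overlapped between the strains of highest and lowest mean, at 1683 ± 398 CPM in CAST/EiJ and 1313 ± 346 CPM in NOD/ShiLtJ. The part of these markers in the strain differences was not tested. In mice of batches 1 to 4, Otof was 310.8, 239.5, 323.4 and 210.2 CPM in C57BL/6, 87.8, 147.6, 120.8 and 138.3 CPM in 129S1/SvImJ and 111.8, 84.95, 211.6 and 97.6 CPM in WSB/EiJ. The C57BL/6 mice did not overlap with 129S1/SvImJ, and overlapped with WSB/EiJ in 1 mouse. The means were 270.9 ± 54.8 CPM in C57BL/6 and 123.6 ± 26.3 CPM in 129S1/SvImJ (edgeR adjusted p = 1.12e-06 for strain). Casz1 was 67.9, 66.5, 70.6 and 77.1 CPM in WSB/EiJ and 187.1, 117.3, 164.3 and 175.2 CPM in 129S1/SvImJ (edgeR adjusted p = 0.00225 for strain), and the 4 WSB/EiJ mice lay below all 28 others. WSB/EiJ was thus low in both genes, and 129S1/SvImJ low in Otof but highest in Casz1. Tshz1 (edgeR adjusted p = 0.711), Cacng5 (0.305) and Pcdh8 (0.204) did not pass the test. Strain means of Tshz1, the marker with the smallest span, lay between 362.5 ± 63.1 and 437.1 ± 31.7 CPM. The count of called genes was 628 without batch 2 and 790 without the batch term. The call of both markers remained in every alternative run for the strain term.

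Drd1 and Penk did not pass the strain test (edgeR adjusted p = 0.325 and 0.13), although Penk was called in 1 contrast of a single strain, at 380.6 ± 52.0 CPM in PWK/PhJ against 286.1 ± 92.7 CPM in the other strains, with overlap (edgeR adjusted p = 0.0284). Of the listed genes, 61 of 128 tested passed, Otof and Casz1 among them, beside 17.3% of all genes tested, and 27 of the 61 passed in every alternative run. The lists were chosen with earlier results of these data known, so these shares are no test of the lists. Among striosome genes, 4 of 6 tested passed. Oprm1 was 203.6, 203.1, 219.5 and 169.5 CPM in WSB/EiJ and 60.03, 77.97, 29.78 and 58.38 CPM in C57BL/6 (edgeR adjusted p = 4.49e-06). These strains did not overlap, whereas they did in the Drd1+ neurons of the same mice, at 34.5 ± 7.08 and 37.7 ± 7.90 CPM. Sema5b was highest in PWK/PhJ (399.3 ± 29.0 CPM) and lowest in NZO/HlLtJ (214.2 ± 23.1 CPM; edgeR adjusted p = 4.89e-06). Of the 3 dopamine receptor genes, Drd3 passed, at 57.02 ± 21.38 CPM in NOD/ShiLtJ and 9.59 ± 11.4 CPM in CAST/EiJ (edgeR adjusted p = 0.00188). Of 8 protocadherin genes, 5 passed. Pcdh15 was 1073, 1373, 1258 and 1419 CPM in CAST/EiJ and 3249, 2597, 2791 and 3170 CPM in NOD/ShiLtJ (edgeR adjusted p = 2.12e-07), and the CAST/EiJ mice lay below all 28 others. Of 20 glutamate receptor genes, 11 passed. They included Grm7, low in WSB/EiJ (1536 ± 135 CPM, below all 28 others; edgeR adjusted p = 1.2e-07), and Gria4, an AMPA receptor gene that was highest in NOD/ShiLtJ (837.5 ± 143.1 CPM) and lowest in CAST/EiJ (475.1 ± 50.4 CPM; adjusted p = 0.000195). Of 14 phosphodiesterase genes, 10 passed, led by Pde4b, which had 2101 ± 307 CPM in PWK/PhJ and 3442 ± 305 CPM in NZO/HlLtJ (edgeR adjusted p = 1.04e-09). Of 22 transcription factor genes, 9 passed, and Rxrg was lowest in CAST/EiJ (99.01 ± 20.63 CPM) and highest in C57BL/6 (228.8 ± 14.7 CPM; edgeR adjusted p = 2.01e-07).

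**Figure D4:**
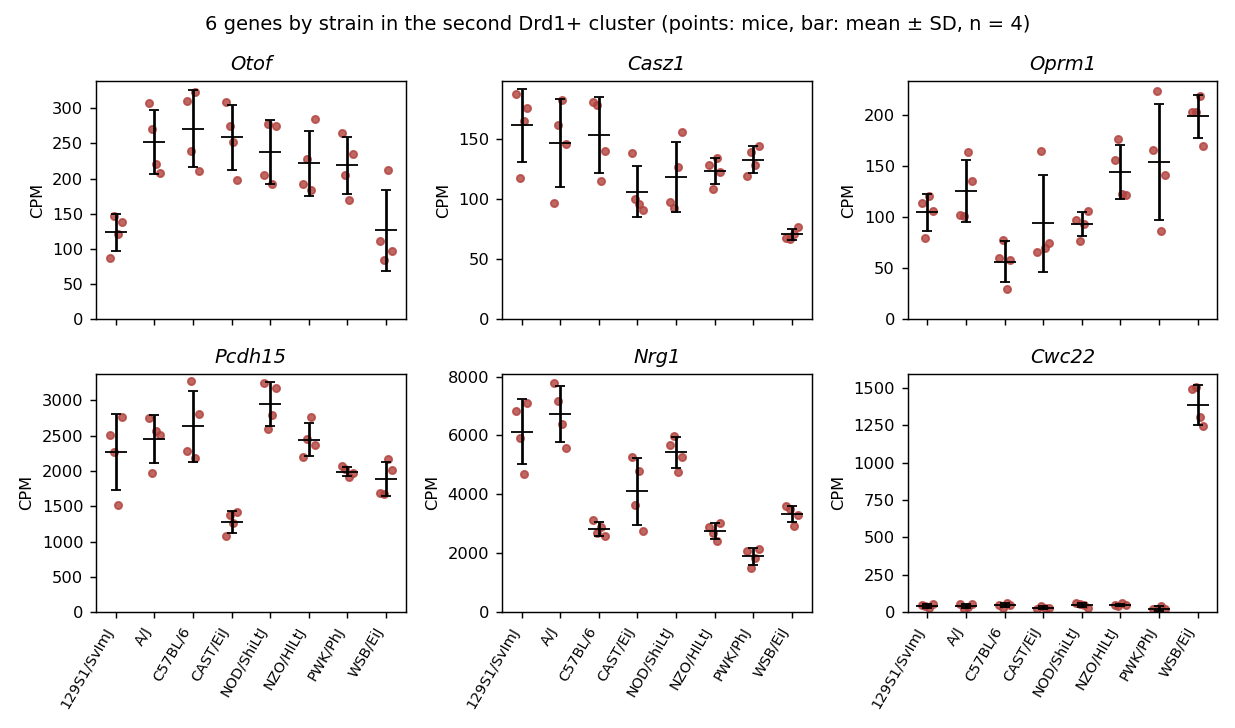
CPM (y axis) of Otof, Casz1, Oprm1, Pcdh15, Nrg1 and Cwc22 in the second Drd1+ cluster by strain (x axis), with a point per mouse and the mean ± SD (n = 4). Casz1 is lowest in WSB/EiJ, Pcdh15 lowest in CAST/EiJ, Oprm1 and Cwc22 highest in WSB/EiJ, and Nrg1 lowest in PWK/PhJ.

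Among the 20 genes with the largest F for strain, several were high or near 0 in a single strain. Cwc22, a splicing factor gene that is present in extra copies in some mouse strains, was 1493, 1503, 1301 and 1243 CPM in WSB/EiJ and 6.05 to 63.8 CPM in the other 28 mice (edgeR adjusted p = 6.6e-51). Counts of near-identical copies cannot be told apart here. Nrg1, which encodes the neuregulin ligand of ErbB receptors, was graded over the strains. PWK/PhJ was lowest with 1889 ± 284 CPM, WSB/EiJ had 3332 ± 288 CPM, NOD/ShiLtJ had 5425 ± 524 CPM, and A/J was highest with 6730 ± 961 CPM (edgeR adjusted p = 1.57e-24). Unc5c, a netrin receptor gene, had 73.6 ± 37.1 CPM in WSB/EiJ and 524.7 ± 172.0 CPM in C57BL/6 (edgeR adjusted p = 8.52e-15). Kcnq5, a potassium channel gene, was 5586 ± 695 CPM in NZO/HlLtJ and 2069 ± 312 CPM in WSB/EiJ (edgeR adjusted p = 6.08e-20). The contactin gene Cntn5 had 951 ± 61.6 CPM in WSB/EiJ and 1990 ± 125 CPM in NZO/HlLtJ, and Nkain2, which encodes a partner of the sodium pump, had 690 ± 85.2 CPM in CAST/EiJ and 2373 ± 344 CPM in NZO/HlLtJ. Snhg11, a long noncoding RNA gene, was lowest in NZO/HlLtJ (1059 ± 214 CPM) and highest in PWK/PhJ (3642 ± 466 CPM). The predicted gene Gm40663 had 0 counts in the 4 PWK/PhJ mice and 217.1 ± 53.4 CPM in A/J, at least 77.9-fold higher when PWK/PhJ is set to 3 counts over the group. B530045E10Rik had 0 counts in NOD/ShiLtJ and WSB/EiJ and was at least 72.4-fold and 77.9-fold higher in CAST/EiJ (277.0 ± 181.3 CPM). Catspere1, a gene of a sperm cation channel complex, had 0 counts in C57BL/6 and NOD/ShiLtJ, and PWK/PhJ (174.0 ± 37.1 CPM) was at least 50.4-fold and 45.5-fold higher. The other 10 of the 20 named genes were AC149090.1, Gm49906, Catspere2, March1, Btbd9, Cfap54, Tmem181a, Slc44a5, Gm28905 and Prkd1, and all 20 remained called in every alternative run.

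Each strain was also set against the other 7, in contrasts that share mice and are therefore not independent. PWK/PhJ differed in 472 genes (8.51% of 5544, 228 higher and 244 lower), CAST/EiJ in 341 (6.15%, 198 and 143), WSB/EiJ in 183 (3.30%, 99 and 84), NZO/HlLtJ in 180 (3.25%, 102 and 78), C57BL/6 in 172 (3.10%, 110 and 62), A/J in 124 (2.24%, 94 and 30), NOD/ShiLtJ in 109 (1.97%, 72 and 37) and 129S1/SvImJ in 58 (1.05%, 39 and 19), by edgeR at an adjusted p under 0.05. Without a filter on low counts, 59.3% of 597 called genes were higher in PWK/PhJ, in place of 48.3%. The share moved from 58.1% to 68.4% of 481 genes in CAST/EiJ and from 64.0% to 74.1% of 243 genes in C57BL/6. In PWK/PhJ the serotonin receptor gene Htr2c was higher than in the others, at 84.9 ± 37.3 against 30.1 ± 23.7 CPM (edgeR adjusted p = 0.000246), and Foxp1 was lower, at 464.5 ± 50.7 against 652.2 ± 122.5 CPM (adjusted p = 0.0022), both with overlap. Across the 8 strains, Htr2c did not pass without batch 4 (edgeR adjusted p = 0.107) or without the batch term (0.0781). Genes given here as without overlap were chosen for that. Such called genes numbered 25 in PWK/PhJ, 20 in CAST/EiJ, 11 in C57BL/6 and 10 in NOD/ShiLtJ. They numbered 9 in NZO/HlLtJ, 8 in WSB/EiJ and 2 in A/J. Col27a1, a collagen gene, was 4.65 ± 4.11 CPM in PWK/PhJ and 70.9 ± 39.3 CPM in the other 28 mice, with no overlap (edgeR adjusted p = 3.86e-10). In CAST/EiJ, Grin3a was higher, at 102.9 ± 27.1 against 40.9 ± 23.4 CPM with overlap (edgeR adjusted p = 9.54e-06), and the mitochondrial ribosome gene Mrpl41 lower without overlap, at 9.40 ± 7.17 against 79.9 ± 32.9 CPM (adjusted p = 6.1e-10). In WSB/EiJ the myosin gene Myo16 was lower without overlap, at 43.9, 48.0, 0 and 30.8 CPM against 59.8 to 174.5 CPM (edgeR adjusted p = 4.22e-06), and Pde10a was lower with overlap, at 1655 ± 212 against 2400 ± 430 CPM (adjusted p = 0.000394). In NOD/ShiLtJ, Ppfibp1, a liprin gene, was higher without overlap (73.5 ± 15.7 against 13.6 ± 9.92 CPM) and Arhgap10 lower (9.35 ± 7.45 against 68.1 ± 33.5 CPM). In NZO/HlLtJ, E430024P14Rik and Iqcm were lower without overlap, at 5.15 ± 4.19 and 3.79 ± 2.92 CPM against 76.2 ± 33.0 and 30.6 ± 14.9 CPM. In C57BL/6 the Notch coactivator gene Maml2 and the transcription cofactor gene Eya2 were lower without overlap, at 19.9 ± 5.05 and 13.8 ± 8.20 CPM against 77.9 ± 27.7 and 49.0 ± 19.5 CPM. In A/J, Clybl was lower (3.04 ± 2.29 against 29.37 ± 13.98 CPM) and the noncoding RNA gene Gas5 higher (308.5 ± 46.2 against 167.2 ± 46.6 CPM), both without overlap, and 129S1/SvImJ had no called gene whose mice lay outside the range of the others. Without batch 2 the counts were 306 in PWK/PhJ, 193 in CAST/EiJ, 108 in WSB/EiJ, 90 in NZO/HlLtJ, 58 in A/J and 35 in 129S1/SvImJ. Without batch 3 they were 303 in PWK/PhJ, 214 in CAST/EiJ, 108 in NZO/HlLtJ and 70 in A/J, without batch 1 214 in CAST/EiJ, 100 in NZO/HlLtJ and 61 in A/J, and without batch 4 71 in NOD/ShiLtJ.

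The strain difference was of another size in the second cluster than in Drd1+ neurons for 529 of 12440 genes (4.25%; edgeR quasi-likelihood test of the interaction of strain and cluster with mouse as block, adjusted p under 0.05). Thsd7b had the lowest adjusted p (edgeR, 2.17e-38). It was 825.0, 659.5, 524.9 and 872.3 CPM in the second cluster of NOD/ShiLtJ and 554.7, 460.1, 388.8 and 624.4 CPM in PWK/PhJ. In Drd1+ neurons it was 9.81, 7.48, 7.16 and 10.7 CPM in NOD/ShiLtJ and 50.3, 88.5, 56.7 and 75.8 CPM in PWK/PhJ, so that NOD/ShiLtJ had the higher mean in the second cluster and PWK/PhJ the higher values in Drd1+ neurons. Nrg1 was near equal in both clusters in A/J (log2 ratio 0.02 ± 0.19, SD, n = 4) and 129S1/SvImJ (-0.12 ± 0.18) and lower in the second cluster in PWK/PhJ (-1.43 ± 0.31), C57BL/6 (-1.07 ± 0.19) and WSB/EiJ (-0.94 ± 0.07; edgeR adjusted p = 1.61e-24). The strain means of Nrg1 in Drd1+ neurons lay between 5086 ± 502 and 6788 ± 655 CPM, a narrower range than in the second cluster. L3mbtl4, a chromatin reader gene, changed order, at 35.4 ± 22.9 against 2.32 ± 1.06 CPM in PWK/PhJ and 5.15 ± 4.19 against 37.5 ± 10.2 CPM in NZO/HlLtJ (edgeR adjusted p = 1.61e-25). Myo16 in CAST/EiJ was 119.2 ± 20.1 CPM in the second cluster and 7.88 ± 1.90 CPM in Drd1+ neurons, while in NOD/ShiLtJ it was 76.5 ± 18.2 and 88.4 ± 9.85 CPM (edgeR adjusted p = 2.88e-23). Kcnt2, a sodium-activated potassium channel gene, was 479.0 ± 104.3 against 21.7 ± 3.05 CPM in PWK/PhJ and 248.2 ± 34.1 against 62.1 ± 18.6 CPM in NOD/ShiLtJ (edgeR adjusted p = 1.61e-25). Runx2, a transcription factor gene, was 103.5 ± 46.3 against 118.4 ± 14.8 CPM in A/J and 191.4 ± 51.1 against 44.3 ± 5.05 CPM in C57BL/6 (edgeR adjusted p = 2.6e-24). Cdh18, Ralyl, Gabrg3 and Sgcd were the others of the 10 named, and all 10 remained called in every alternative run with Drd1+ neurons. With Drd1+ neurons thinned to the depth of the second cluster, 310 genes of 6199 tested were called.

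**Figure D5:**
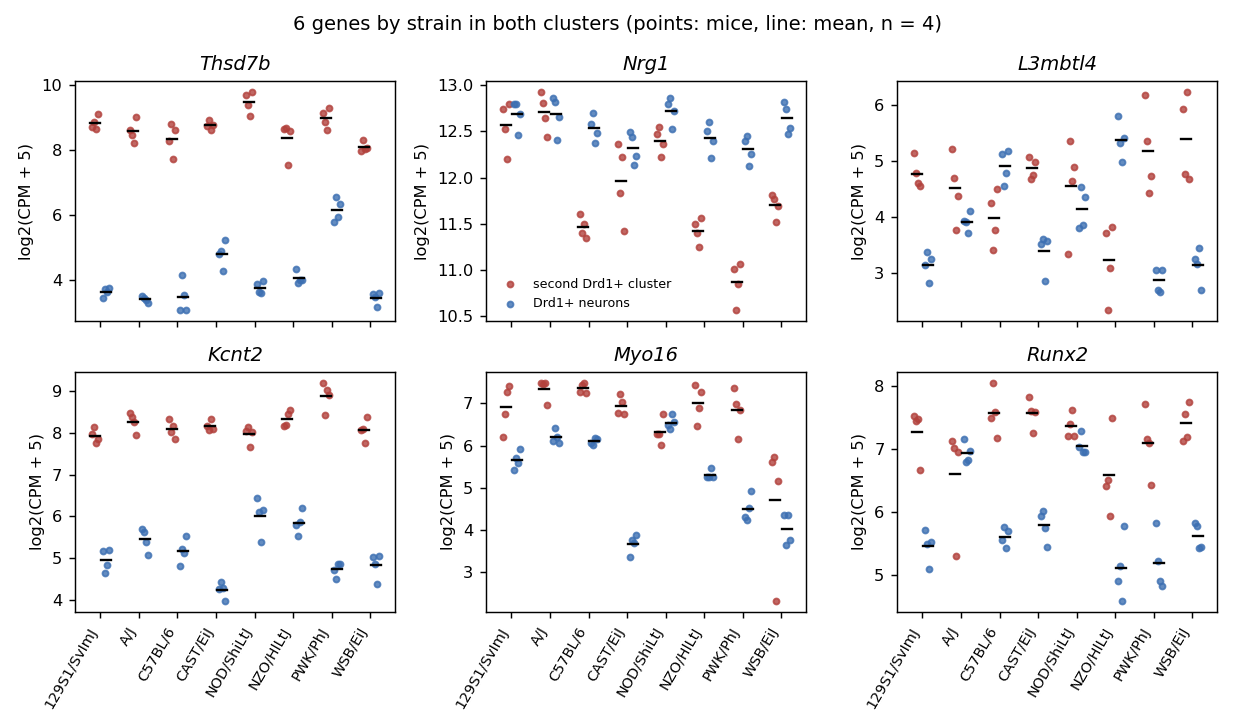
log2(CPM + 5) (y axis) of Thsd7b, Nrg1, L3mbtl4, Kcnt2, Myo16 and Runx2 by strain (x axis) in the second Drd1+ cluster and in Drd1+ neurons, with a point per mouse and a line at the mean (n = 4). The gap between the clusters varies with strain, from a mean log2 ratio of 5.70 to 2.82 for Thsd7b and from 2.32 to -2.15 for L3mbtl4.

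Of 193 listed genes tested, 45 had a called interaction, beside 4.25% of all genes tested. As the lists were chosen with earlier results known, this is no test of the lists. Of the 45, 11 were called in every alternative run with Drd1+ neurons. Tac1 was higher in the second cluster by 1.31 ± 0.26 in PWK/PhJ (log2 ratio, SD, n = 4) and by 1.17 ± 0.37 in C57BL/6, whereas NOD/ShiLtJ gave -0.11 ± 0.15 (edgeR adjusted p = 5.25e-17). The NOD/ShiLtJ values were 399.7, 422.5, 651.1 and 356.3 CPM in the second cluster and 411.5, 407.6, 714.6 and 443.0 CPM in Drd1+ neurons, in which NOD/ShiLtJ had the highest strain mean (494.2 ± 147.8 CPM). Cacng5, which did not pass the strain test in the second cluster, had a called interaction (edgeR adjusted p = 1.69e-09). In Drd1+ neurons it averaged 17.6 ± 5.26 CPM in NOD/ShiLtJ and 1.43 ± 0.805 CPM in C57BL/6, against 72.3 ± 4.37 and 67.4 ± 25.1 CPM in the second cluster. With Drd2+ neurons in place of Drd1+ neurons, neither interaction passed (edgeR adjusted p = 0.832 for Cacng5 and 0.801 for Tac1). Oprm1 was higher in the second cluster by 2.38 ± 0.38 in WSB/EiJ and by 0.48 ± 0.71 in C57BL/6 (edgeR adjusted p = 7.03e-08). Sema5b was higher in every strain, by 2.71 ± 0.08 in WSB/EiJ to 3.91 ± 0.19 in A/J (edgeR adjusted p = 1.11e-06). Gria4 was higher in the second cluster in NOD/ShiLtJ (0.61 ± 0.18) and lower in CAST/EiJ (-0.84 ± 0.14; edgeR adjusted p = 1.45e-12). Pde4b, Pcdh7, Pcdh11x, Grin2a and Gabrg3 were also among the 11. Otof and Tshz1 also had a called interaction (edgeR adjusted p = 0.000168 and 0.00697), which did not hold in every alternative and for Otof did not pass with thinned Drd1+ neurons (0.151). Casz1 (edgeR adjusted p = 0.867), Pcdh8 (0.993) and Drd1 (0.82) did not pass.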

How the data were processed

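RNA counts of 4 batches of pooled nuclei were used as deposited. Per the submitters' processing notes, bcl2fastq 2.20.0.422 and Cell Ranger ARC 2.0.0 were used with the mm10 (GRCm38) build. The deposited values are raw UMI counts per gene and barcode, and the authors assigned nuclei to strains by genotype, removed doublets and low-quality nuclei and named the clusters, per the deposited file descriptions. Categories in the authors' table (batch, strain, cluster) and the deposited list of 291715 accessible regions were used as given, and the matrix of accessible regions was not used here.

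Counts were summed per mouse and cluster. All 32 mice had at least 10 nuclei. Strain and interaction were tested with edgeR 4.0.16 (R 4.3.3; TMM, filterByExpr, robust quasi-likelihood fit), with batch or mouse as block and Benjamini-Hochberg adjustment at 0.05, and with DESeq2 1.42.0 as an alternative. Drd1+ neurons were not tested against the cluster. The scripts were tested on simulated data. Batch numbers pair the mice because the labels say that 1 mouse of each strain was pooled per batch: the median correlation of deviations from strain means was 0.0525 over 112 same-batch pairs and -0.0194 over 336 other pairs.

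Named genes were the 20 called genes with the largest F for strain, up to 2 per strain whose mice all lay outside the range of the others, the 10 with the largest F for the interaction and the 12 highest and 12 lowest within mice, each with at least 20 CPM, plus members of 25 gene lists. Members, markers and lists were chosen with earlier results of these data known. RefSeq promoter entries were matched by symbol for 19 of 28 markers and within-mouse genes. Tables, permutations and figures used Python 3.11.15, numpy 2.4.6, scipy 1.17.1, pandas 2.3.3 and matplotlib 3.10.9. Results for some listed genes are not reported here.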

Additional observations from a re-analysis of the deposited data

Results flagged for a closer look

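In NOD/ShiLtJ, 1 mouse stood apart from the other 3 in Arhgap10, at 20.5 CPM against 5.12, 5.15 and 6.64 CPM. The gap exceeded the 95% limit of Dixon's test for 4 samples. Of 78 groups tested this was the only such mouse, while chance alone gives about 1 in 20, and all 4 mice stayed below the lowest other mouse (27.1 CPM).

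The 10 genes named for the interaction differed between the clusters in how they varied with strain. By edgeR the adjusted p was 2.17e-38 for Thsd7b, 1.61e-25 for L3mbtl4, 1.61e-25 for Kcnt2, 1.61e-24 for Nrg1, 2.6e-24 for Runx2, 2.21e-23 for Gabrg3 and 2.88e-23 for Myo16. It was 1.09e-22 for Cdh18, 4.03e-21 for Sgcd and 2.96e-14 for Ralyl. Cdh18, a cadherin gene, was higher in the second cluster than in Drd1+ neurons in CAST/EiJ (log2 ratio 0.97 ± 0.24, SD, n = 4) and lower in C57BL/6 (-0.66 ± 0.34). Gabrg3, a GABA-A receptor subunit gene, was higher by 1.76 ± 0.15 in CAST/EiJ and by 0.69 ± 0.07 in WSB/EiJ. Sgcd, a sarcoglycan gene, was higher by 2.39 ± 0.33 in PWK/PhJ and by 0.67 ± 0.11 in NOD/ShiLtJ. Ralyl, an RNA-binding protein gene, was higher by 3.14 ± 0.23 in 129S1/SvImJ and by 1.00 ± 0.45 in CAST/EiJ.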

How the results depend on the processing

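The strain term called 958 genes as reported, 961 with RLE scaling, 1349 without a filter, 872 without the deepest 5% of nuclei, 945 with at least 30 nuclei per mouse, 750 with DESeq2 and 628 to 780 with each batch left out. With each batch left out, the contrasts called 35 to 48 genes in 129S1/SvImJ, 58 to 122 in A/J, 117 to 141 in C57BL/6, 193 to 270 in CAST/EiJ, 71 to 98 in NOD/ShiLtJ, 90 to 194 in NZO/HlLtJ, 303 to 325 in PWK/PhJ and 108 to 148 in WSB/EiJ. Other shifts were 95 genes in 129S1/SvImJ without a filter, 56 in A/J with at least 30 nuclei, and 79 in A/J and 313 in PWK/PhJ with DESeq2. The interaction called 360 to 505 genes with each batch left out and 310 with thinned Drd1+ neurons, where fewer genes were tested.

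With batch in place of mouse as the block, the interaction called 420 genes. Without the batch block that pairs the mice, the strain term called 790 genes and the Tac1 strain call was lost (edgeR adjusted p = 0.507). The permutation p for UMI depth was then 0.414. That p ranged from 0.00042 to 0.142 with each batch left out. With an offset of 20 CPM, 193 genes were higher and 210 lower within mice, and with each batch left out 282 to 305 and 413 to 431. With total counts in place of TMM, 344 were higher and 339 lower, so the excess of lower genes was not kept. Against Drd2+ neurons in place of Drd1+ neurons, 7 listed genes changed sign, to log2 ratios of 0.58 for Ebf1, 1.02 for Pdyn, -1.26 for Chrm3, -1.91 for Grik3, -0.63 for Htr4, -2.13 for Penk and -0.26 for Sp9. Thinned to 1000 UMIs, detection was 15.8% for Otof, 10.6% for Casz1, 33.1% for Tshz1, 6.30% for Cacng5 and 3.96% for Pcdh8. The log2 span of the share of nuclei over strains was 0.81 to 0.917 with each batch left out. Beyond the values given here, the cause of these shifts was not tested. The 28 to 77 nuclei per mouse limit the genes that could be tested: 5544 passed the filter in the cluster, against 13431 in Drd1+ neurons.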
